A study of Mus musculus with 4 samples.

Results

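Metallothioneins and zinc transporters form a small set of genes that store zinc in the cell and carry it across membranes. The set was given as a list of 10 gene symbols: the metallothionein genes Mt1, Mt2 and Mt3, the zinc sensor gene Mtf1, the importer genes Slc39a14, Slc39a8, Slc39a10 and Slc39a4, and the exporter genes Slc30a1 and Slc30a4. All 10 were measured, each by 1 probe set, among 19938 genes in all. The material was bone marrow from C57BL/6N mice, taken 8 h after 1 intraperitoneal injection and hybridised to 4 Affymetrix GeneChip Mouse Gene ST arrays. PBS (phosphate-buffered saline) was given in the control group (replicates 1 and 3) and 50 µg of LPS, a bacterial endotoxin mixed in equal parts from Escherichia coli K12 and Salmonella minnesota, in the other (replicates 1 and 2). The labels give neither the age or sex of the mice nor whether each array held marrow from 1 mouse, so the spread between replicates may be partly technical. Both groups were unsorted marrow, in which fewer cells of a type and less RNA per cell cannot be told apart.

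Metallothioneins are short, cysteine-rich proteins that bind zinc and copper. Free zinc in the cell activates the transcription factor MTF1, which binds metal response elements in front of the metallothionein genes and of the exporter gene Slc30a1. The ZIP proteins (Slc39a genes) bring zinc into the cytosol and the ZnT proteins (Slc30a genes) carry it out of the cytosol, into vesicles or out of the cell. Bacterial endotoxin and inflammatory cytokines are known to raise metallothionein and Slc39a14 in liver and to lower zinc in blood plasma.

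The stretches in front of the start sites of Mt1, Mt2, Mt3 and Slc30a1 are shown because textbook targets of MTF1 are among them and because Mt1 and Mt2 moved together in these data while Mt3 and Slc30a1 did not pass the test. Each is the 250 bases before the start in RefSeq's promoter table (GRCm38.p6, plus strand), 5′ to 3′. Capitals mark the core of the metal response element, TGCACNC or TGCGCNC on either strand. Where the core lies on the minus strand its reverse complement is in capitals. The regions are chr8:94178839-94179088 for Mt1, chr8:94172368-94172617 for Mt2, chr8:94152357-94152606 for Mt3 and chr1:191906531-191906780 for Slc30a1.
Mt1: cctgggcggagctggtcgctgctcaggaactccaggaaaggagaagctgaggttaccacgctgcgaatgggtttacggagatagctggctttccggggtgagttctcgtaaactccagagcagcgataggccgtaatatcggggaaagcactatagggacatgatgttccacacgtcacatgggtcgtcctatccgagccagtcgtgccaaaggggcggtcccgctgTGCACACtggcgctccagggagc
Mt2: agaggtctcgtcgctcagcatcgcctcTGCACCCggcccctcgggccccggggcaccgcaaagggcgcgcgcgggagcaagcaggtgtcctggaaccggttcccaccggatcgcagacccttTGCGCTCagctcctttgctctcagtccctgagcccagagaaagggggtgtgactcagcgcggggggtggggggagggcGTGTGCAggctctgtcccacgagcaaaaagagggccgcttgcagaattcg
Mt3: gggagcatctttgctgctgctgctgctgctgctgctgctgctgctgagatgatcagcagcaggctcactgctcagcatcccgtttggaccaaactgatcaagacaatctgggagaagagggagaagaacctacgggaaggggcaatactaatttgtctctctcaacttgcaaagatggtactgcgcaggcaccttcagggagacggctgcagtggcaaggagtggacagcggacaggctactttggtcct
Slc30a1: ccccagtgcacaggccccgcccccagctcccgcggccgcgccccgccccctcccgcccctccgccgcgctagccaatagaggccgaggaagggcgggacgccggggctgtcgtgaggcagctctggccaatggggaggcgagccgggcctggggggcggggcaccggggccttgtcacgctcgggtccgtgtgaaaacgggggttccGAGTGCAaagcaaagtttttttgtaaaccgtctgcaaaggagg

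In these 250 bases Mt2 has 3 cores, Mt1 and Slc30a1 have 1 each, and Mt3 has 0. The table's windows run 50 bases past the start, and with those bases Mt2 has 4 cores, Mt1 has 3, Slc30a1 has 2 and Mt3 has 1. In Mt1 the sites past the start are TGCACTC from base 3 and TGCGCTC from base 21, counted from 1 at the start. The RefSeq gene record of Mt1 begins 206 bases before the start that the table uses, so its window is not in front of every annotated start. Starts of Mt1 further downstream were not looked for, so its counts before and past the start hold for this window alone. Slc30a4, which did not pass the test either, has 3 cores, 2 of them in the 250 bases before the start. Slc39a8 has 1 in 1 of its 2 windows, while Mtf1 and Slc39a10 have 0. Whether the number of cores goes with the response to LPS was not tested. Of all 32851 promoters in the table, 25.7% hold at least 1 core, 7.11% at least 2, 1.97% at least 3 and 0.517% at least 4. The 4 cores of Mt2 thus put it among the most densely matched windows, and a match is a description of the letters and not a binding site. Slc39a14 and Slc39a4 have no window in the table.

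Another 3 motifs were searched in the windows of the same 8 members, on both strands. The antioxidant response element core TGACNNNGC was found in Mt2, Slc30a1 and Slc39a8 and in 12.4% of all promoters. A STAT motif, TTCNNNGAA, was found in Slc39a10 and in 8.30% of all promoters. The pattern TTCNNNGAA reads the same on both strands, so the site was counted once. The NF-kappaB consensus was found in 0 of the 8 members' promoters and in 4.51% of all promoters.

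Of the 10 members, 3 rose after LPS and 0 fell: Mt2, Slc39a14 and Mt1. A gene was counted as changed at a Benjamini-Hochberg adjusted p under 0.05 in limma's moderated test over all 19938 genes, a rule that called 3.66% of genes (2.39% higher and 1.27% lower). Values are log2 units, so that a difference of 1 is a doubling, and intervals are limma's 95% intervals. The median log2 fold change was 0.18 over the members and -0.01 over all genes. In 7 members the arrays of the groups did not overlap, 5 of them higher and 2 lower after LPS. Over all genes the groups did not overlap in 44.9% (20.4% higher and 24.5% lower). Without variance moderation the linear model called 0 genes of the whole table, the 3 included, with 2185 genes at an unadjusted p under 0.05. With 2 arrays a group, no two-sided exact permutation p can fall under 0.333.

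**Figure D1:**
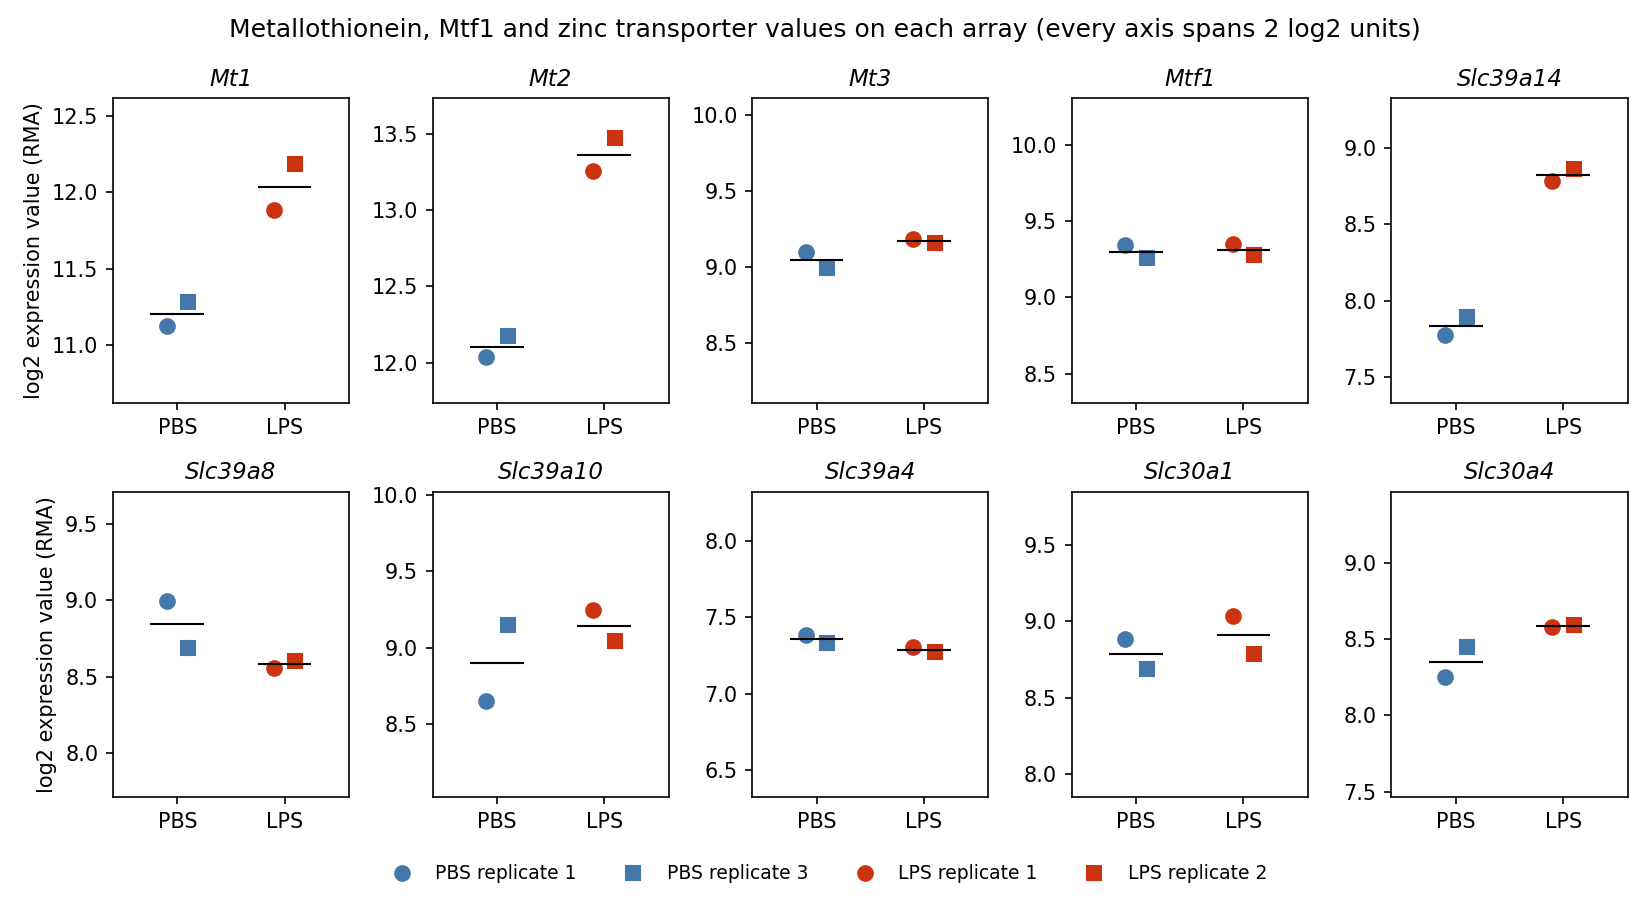
Log2 expression value of each of the 10 genes on the 4 arrays (points; bars are group means, and every vertical axis spans 2 log2 units). Both LPS arrays sit well above both PBS arrays for Mt1, Mt2 and Slc39a14, whereas for Slc39a10 the PBS arrays lie 0.50 apart.

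Mt2 encodes one of the inducible metallothioneins found in most tissues. PBS replicate 1 had a log2 value of 12.03, PBS replicate 3 one of 12.18, LPS replicate 1 one of 13.26 and LPS replicate 2 one of 13.47; values of other genes are given in this order. Both LPS arrays thus lay at least 1.08 above the higher PBS array, while replicates of a group were 0.14 and 0.22 apart. Mean values were 12.10 ± 0.10 for PBS and 13.36 ± 0.15 for LPS (SD, n = 2 each). This gave a log2 fold change of 1.26 (SE 0.108, interval 1.01 to 1.51, limma adjusted p = 0.000637), a 2.39-fold rise. By size of rise Mt2 was gene 112 of the 19938.

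Mt1, its neighbour on the chromosome, encodes a closely similar metallothionein. It stood at 11.12 and 11.28 in the PBS arrays and at 11.88 and 12.18 in the LPS arrays. The groups did not overlap, and LPS replicate 2 was the higher of the LPS arrays, as it was for Mt2. The change was 0.83 (SE 0.122, interval 0.55 to 1.11, limma adjusted p = 0.0102), a 1.78-fold rise that ranked 243 by size. When the fit held all 35556 probe sets, Mt1 missed the threshold (adjusted p = 0.078), while Mt2 (0.0132) and Slc39a14 (0.0149) passed.

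The rise of Mt2 was larger than that of Mt1 on every pairing of arrays. The Mt2 value minus the Mt1 value was 0.91 and 0.89 on the PBS arrays and 1.37 and 1.29 on the LPS arrays. This within-array difference went from 0.90 ± 0.01 to 1.33 ± 0.06 (SD, n = 2 each), which is 0.43 higher after LPS (exact two-sided permutation p = 0.333, the smallest the design allows). The probe sets of the genes differ, so these values do not show which transcript is more abundant. The transcripts are alike in sequence, and neither how strongly each probe set responds nor how far it also binds the other transcript was tested.

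Mt3, known above all from neurons, was at 9.10 and 8.99 in PBS and at 9.19 and 9.16 in LPS. The LPS arrays were higher by a gap of 0.06, smaller than the 0.10 between the PBS arrays. Its log2 fold change of 0.13 (SE 0.09, interval -0.08 to 0.34) did not pass (limma adjusted p = 0.573). Mt4, the metallothionein of stratified epithelia and not one of the 10, was at 6.92 and 6.92 in PBS and at 6.87 and 6.98 in LPS, with a log2 fold change of 0.00 (adjusted p = 1.00).

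The metallothionein genes lie side by side on mouse chromosome 8 in the order Mt4, Mt3, Mt2, Mt1 (RefSeq, GRCm38.p6). The nearest measured protein-coding genes on the Mt4 side had log2 fold changes of -0.15 (Bbs2), 0.05 (Ogfod1) and -0.09 (Nudt21). On the Mt1 side, Nup93 had 0.02, Slc12a3 -0.01 and Herpud1 -0.11. These 6 genes did not pass, with limma adjusted p-values from 0.551 (Bbs2) to 0.99 (Slc12a3). Nlrc5, which encodes the activator of MHC class I genes and is the fourth gene on that side, rose by 0.68 (SE 0.107, adjusted p = 0.0147), and by 1.32 when its probe sets were averaged. It did not pass with all probe sets in the fit (0.087) or without LPS replicate 2 (0.0533). Between Bbs2 and Herpud1, then, Mt1 and Mt2 were the genes that passed.

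**Figure D2:**
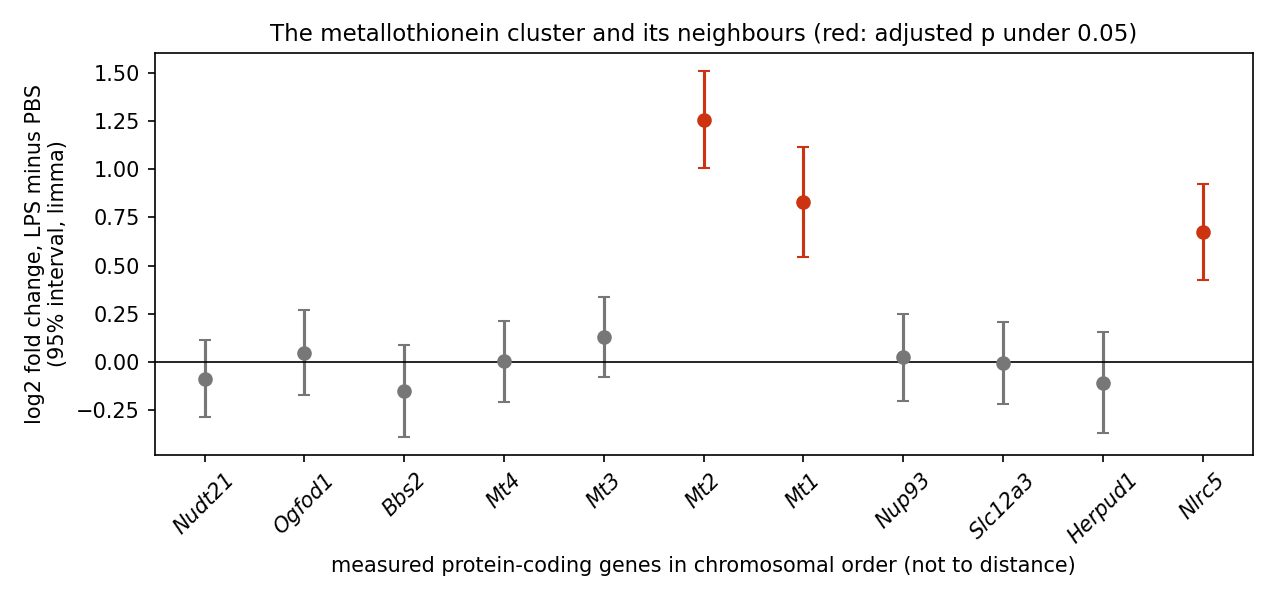
Log2 fold change (LPS minus PBS, 95% interval from limma) of the 4 metallothionein genes and the measured protein-coding genes on either side, in chromosomal order. Mt2 (1.26) and Mt1 (0.83) stand apart from the genes next to them, and Nlrc5 (0.68) is the other gene past the threshold.

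Mtf1, the zinc sensor that acts on the metallothionein genes, had close to the same value in every array. It was at 9.34 and 9.26 in PBS and at 9.35 and 9.28 in LPS. The groups overlapped, and the log2 fold change of 0.01 (SE 0.0901, adjusted p = 0.975) had an interval of -0.20 to 0.22. On the fold scale that interval runs from 0.873 to 1.17. The measure is of the transcript, and MTF1 is known to be controlled largely through zinc binding and entry into the nucleus.

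Slc39a14 encodes ZIP14, a plasma membrane importer of zinc that also carries iron and manganese. Its value was 7.77 and 7.89 in PBS and 8.78 and 8.86 in LPS. All arrays of a group were within 0.12 of each other, and the gap between groups was 0.89. Mean values were 7.83 ± 0.08 for PBS and 8.82 ± 0.06 for LPS (SD, n = 2 each). Slc39a14 rose by 0.99 (SE 0.0931, interval 0.78 to 1.21, limma adjusted p = 0.00103), which is 1.99-fold and ranked 174 by size. When 1 array at a time was left out, the log2 fold change ran from 0.93 to 1.05 and passed each time.

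Slc39a8 encodes ZIP8, an importer of zinc and manganese known as a target of NF-kappaB in monocytes. It was at 8.99 and 8.69 in PBS and at 8.56 and 8.60 in LPS. Both LPS arrays were lower, but by 0.08 at the nearest, against 0.31 between the PBS arrays. The log2 fold change of -0.26 (SE 0.117, interval -0.53 to 0.01) did not pass (limma adjusted p = 0.335). It was -0.11 without PBS replicate 1 and -0.41 without PBS replicate 3.

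Slc39a10 encodes ZIP10, an importer known for its role in early B cells and as a gene that MTF1 represses. Its value was 8.65 and 9.15 in PBS and 9.25 and 9.04 in LPS. PBS replicate 1 was low and PBS replicate 3 lay between the LPS arrays, so the groups overlapped. It had a log2 fold change of 0.24 (SE 0.162, interval -0.13 to 0.62, limma adjusted p = 0.55), whose sign and call rest on the PBS arrays. Without PBS replicate 1 it was -0.01, and without PBS replicate 3 it was 0.49 with an adjusted p of 0.0467. Of 8 measured B-cell markers 2 fell, Fcer2a (-1.61) and Cr2 (-0.75), and 0 rose. The other 6, which did not pass, ran from -0.32 (Ebf1) to -0.01 (Ms4a1). The mean log2 value of all 8 was 10.80 and 10.85 in PBS and 10.24 and 10.57 in LPS. The median deviation of the 8 from each gene's own mean was 0.13 and 0.12 in PBS and -0.33 and 0.13 in LPS. By that measure LPS replicate 1 was low, whereas LPS replicate 2 was at the level of PBS. The part of B cells in the Slc39a10 value was not tested.

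Slc39a4 encodes ZIP4, the importer through which the gut takes up dietary zinc. It was at 7.39 and 7.33 in PBS and at 7.30 and 7.27 in LPS. The arrays did not overlap but were 0.03 apart at the nearest, and the log2 fold change of -0.07 (SE 0.0872, interval -0.28 to 0.13, limma adjusted p = 0.784) did not pass.

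Slc30a1 encodes ZnT1, the exporter of the plasma membrane. Its value was 8.89 and 8.69 in PBS and 9.03 and 8.79 in LPS. The groups overlapped, and the arrays of a group lay 0.20 and 0.25 apart, further than the group means. The change was 0.12 on the log2 scale (SE 0.118, interval -0.15 to 0.40, limma adjusted p = 0.714). Its upper end corresponds to 1.32-fold, below the lower end of 2.01-fold for Mt2, although the difference between these genes was not tested.

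Slc30a4 encodes ZnT4, which loads zinc into vesicles. It was at 8.25 and 8.45 in PBS and at 8.58 and 8.59 in LPS. Both LPS arrays were higher, by 0.13 at the nearest, against 0.20 between the PBS arrays. The log2 fold change of 0.23 (SE 0.0994, interval 0.00 to 0.47) did not pass over all genes (limma adjusted p = 0.308).

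The wider ZIP family held 1 further gene that passed. Of 14 ZIP genes, all measured, 2 rose and 0 fell, with a median log2 fold change of 0.05. Beside Slc39a14 this was Slc39a1, which encodes ZIP1, a widely expressed plasma membrane importer. Slc39a1 was at 9.24 and 9.49 in PBS and at 9.95 and 9.97 in LPS, so that the groups were at least 0.47 apart. It rose by 0.60 (SE 0.106, interval 0.35 to 0.85, limma adjusted p = 0.0249), 1.51-fold. It did not pass without LPS replicate 2 (0.0621) or with all probe sets in the fit (0.118). Log2 fold changes of the other 12 ZIP genes ran from -0.28 (Slc39a11) to 0.28 (Slc39a6).

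Among the 10 ZnT genes, all measured, 0 passed in either direction in limma, and 2 had an unadjusted p under 0.05, Slc30a4 and Slc30a9. Their log2 fold changes ran from -0.26 (Slc30a9) to 0.23 (Slc30a4), with a median of 0.05. The transporter genes past the threshold were both importers, and whether the families differ was not tested.

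**Figure D3:**
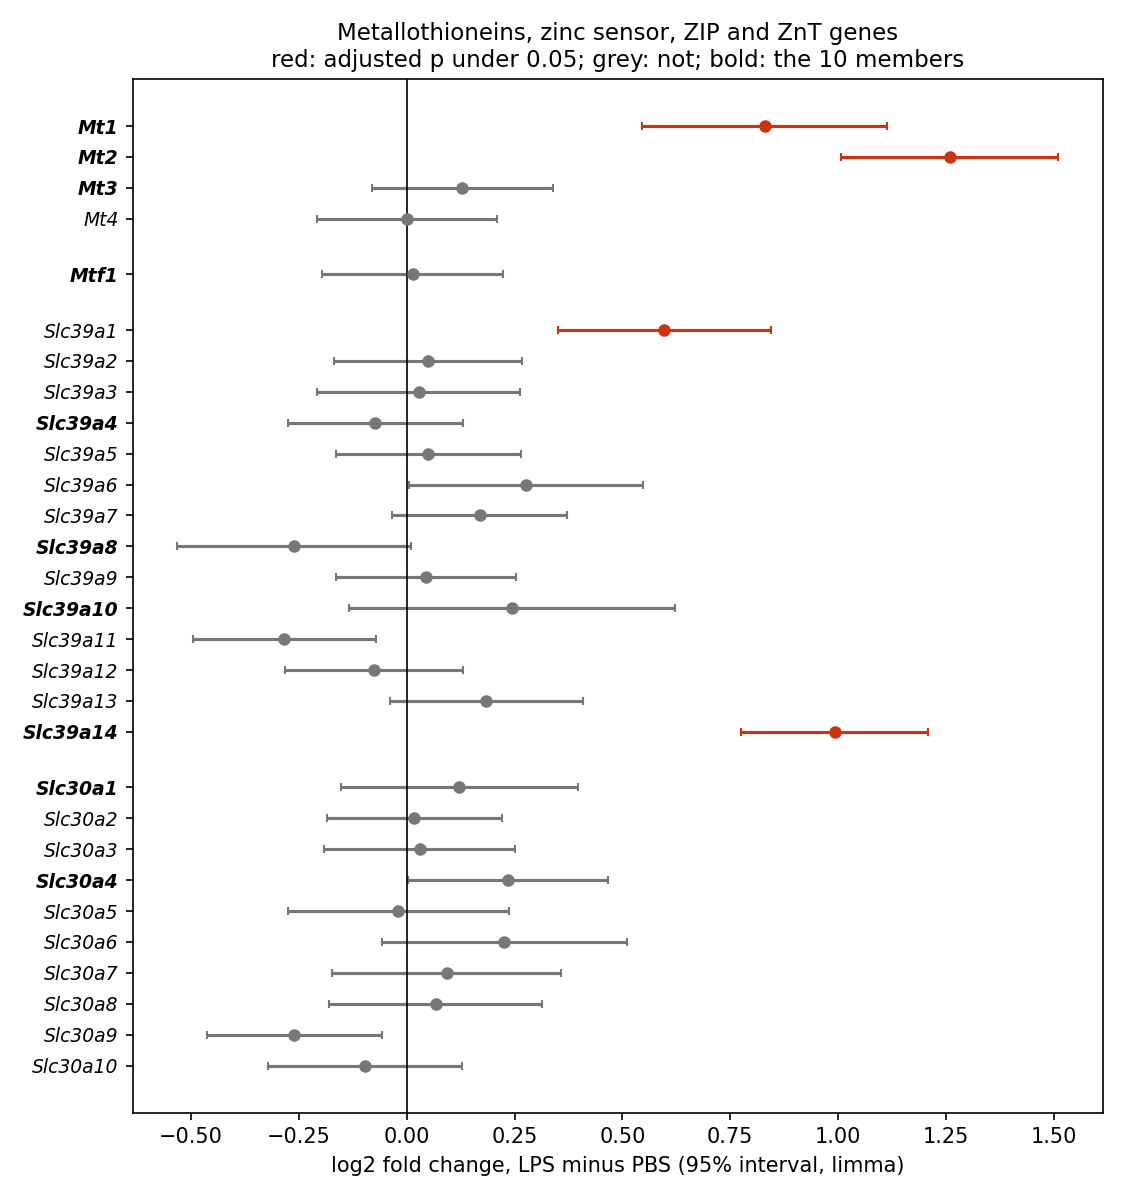
Log2 fold change (LPS minus PBS, 95% interval from limma) of the metallothionein, Mtf1, ZIP and ZnT genes, with the 10 members in bold. Mt1, Mt2, Slc39a1 and Slc39a14 (red) passed an adjusted p under 0.05, and the 10 ZnT genes lie between -0.26 and 0.23.

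Proteins outside these families also bind zinc or copper. S100a8 and S100a9, whose products form calprotectin, the zinc-chelating protein of neutrophils, had log2 fold changes of -0.07 each (limma adjusted p = 0.815 and 0.789). Of 12 measured copper genes, 2 rose and 0 fell, with a median of 0.16. Cp, the plasma ferroxidase ceruloplasmin, was at 9.59 and 10.31 in PBS and at 11.19 and 11.16 in LPS, a rise of 1.22 (SE 0.204, adjusted p = 0.0186). Steap4, a metalloreductase for iron and copper, was at 9.51 and 9.79 in PBS and at 10.48 and 11.09 in LPS, a rise of 1.14 (SE 0.193, adjusted p = 0.0198). Neither passed with all probe sets in the fit (0.125 and 0.128).

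Signals known to induce metallothionein or Slc39a14 were measured as well. Of 10 genes of interleukin-6 and STAT3 signalling, 3 rose and 0 fell, with a median of 0.36. The cytokine gene Il6 rose by 1.46 (SE 0.0878, limma adjusted p = 9.56e-05) from a mean of 5.02, below the lower quartile of genes on the arrays (6.66 to 6.72), so that its fold is uncertain. Osmr, the oncostatin M receptor, rose by 1.21 (adjusted p = 0.000598). Socs3, the STAT3-induced feedback inhibitor, rose by 0.92 (adjusted p = 0.00103), but by 0.40 with an adjusted p of 0.0521 when its probe sets were averaged. Of 6 other inducers 3 rose and 0 fell, with a median of 0.42. Tnf rose by 1.44, the inducible nitric oxide synthase gene Nos2 by 1.05 and Hif1a by 0.62 (adjusted p = 0.000343, 0.000906 and 0.0138). Hif1a did not pass when every probe set was in the fit (0.078). The log2 fold changes that did not pass were -0.42 for the interleukin-1 beta gene Il1b (adjusted p = 0.33), -0.04 for the glucocorticoid receptor gene Nr3c1 (0.918) and 0.21 for the interferon gamma gene Ifng (0.297).

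Glucocorticoids, metals and oxidative stress are other known inducers of metallothionein. Of 10 glucocorticoid targets 2 rose, Il1r2 by 1.20 (limma adjusted p = 0.000414) and Errfi1 by 0.73 (0.0381), 0 fell, and the median was -0.03. Errfi1 did not pass without LPS replicate 1 (0.0642) or with all probe sets in the fit (0.168). Tsc22d3 and Fkbp5, widely used readouts of the glucocorticoid receptor, had -0.15 (adjusted p = 0.577) and 0.32 (0.116). Of the glucocorticoid targets 4 were above 0 and 6 below, and the lowest was Dusp1 at -0.44 (limma adjusted p = 0.15). Of 11 targets of NRF2, the transcription factor of the oxidative stress response, 0 rose and 1 fell, Nqo1 by -0.74 (SE 0.0864, adjusted p = 0.00318), with a median of -0.06. Of the NRF2 targets 5 were above 0 and 6 below, and the highest was Txnrd1 at 0.44 (limma adjusted p = 0.0795). Hmox1, which metals also induce, had 0.19 (adjusted p = 0.372).

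**Figure D4:**
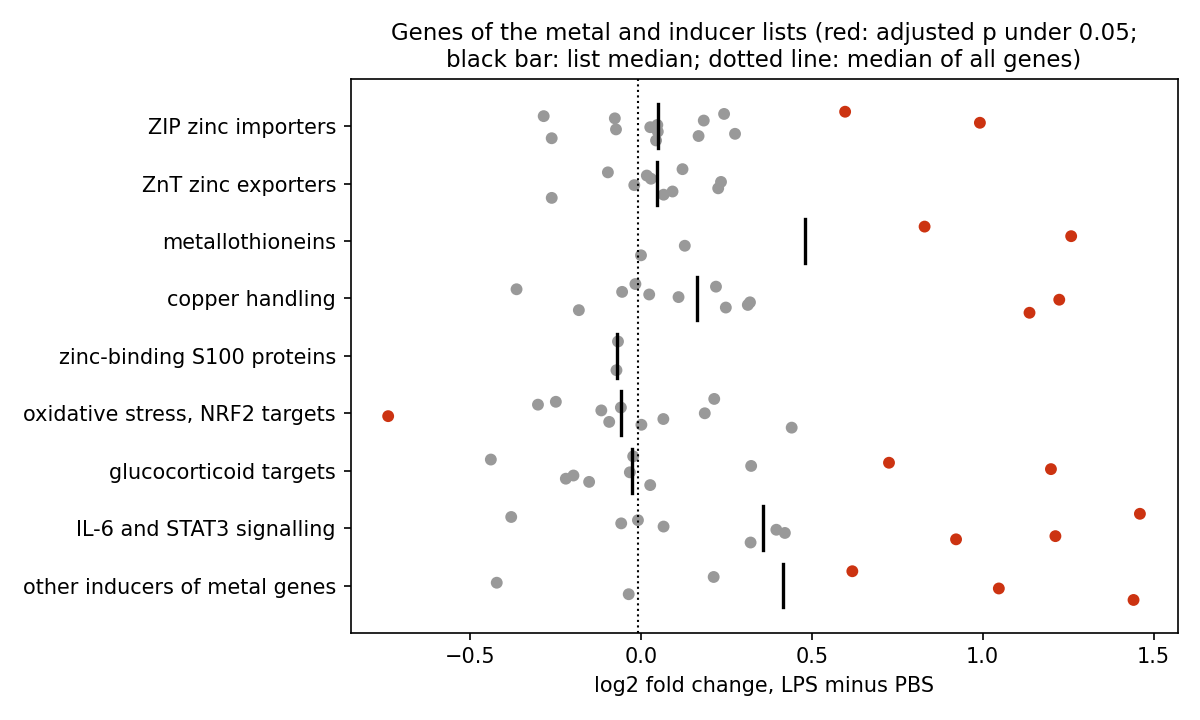
Log2 fold change (LPS minus PBS) of every measured gene in the metal and inducer lists, with list medians as black bars and the median of all genes (-0.01) as a dotted line. The genes past the threshold (red) lie to the right except Nqo1, at -0.74.

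The genes with the most similar values over the 4 arrays were found from the distance between values after subtracting each gene's mean. Clone names, olfactory and vomeronasal receptors, immunoglobulin and T-cell receptor segments and small RNAs were left out by symbol. That filter reads letters alone, so it also removes other genes whose symbols start alike. Nearest to Mt2 were Fscn1 (distance 0.046), Irf1 (0.068) and Cyp1b1 (0.104). For Mt1 they were Anpep (0.069), the acute phase haptoglobin gene Hp (0.085) and Zup1 (0.085), and for Slc39a14 they were Setdb2 (0.036), Trim30a (0.059) and Nos2 (0.064). All 9 had log2 fold changes between 0.80 and 1.30, except that Irf1 had 0.71 when its probe sets were averaged. With 4 arrays such likeness reflects mainly the size of the LPS difference.

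Marrow markers were in place and moved beside these results. Neutrophil precursor and erythroid markers had mean log2 values of 12.53 to 12.77 and of 11.63 to 11.92 on the 4 arrays, above the upper quartile over genes (9.45 to 9.51). Mature neutrophil markers had means of 11.74 and 11.55 in PBS and of 11.45 and 11.14 in LPS. Of 8, 2 fell, Ly6g (-1.14) and Retnlg (-0.76), and the median log2 fold change was -0.22. Monocyte and macrophage markers had means of at most 10.04 in PBS and of 9.54 and 9.48 in LPS. Their median log2 fold change was -0.17. Of 9 measured, 1 rose, Adgre1 (0.56), and 3 fell, Cd163 (-2.41), Mrc1 (-1.72) and Mertk (-0.54). The other 5, which did not pass, ran from -0.32 (Cx3cr1) to 0.11 (Csf1r). Among the remaining markers, 0 of 8 neutrophil precursor, 0 of 9 erythroid, 0 of 5 T-cell, 0 of 4 megakaryocyte and 0 of 3 adipocyte markers passed. Natural killer markers had 1 rise and 1 fall of 6, endothelial markers 2 falls of 6 and stromal markers 1 fall of 8. Their median log2 fold changes were 0.04, 0.07 and 0.10, with 3, 4 and 5 markers above 0. The part of cell composition in the metallothionein and transporter values was not tested.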

How the data were processed

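RNA from 4 bone marrow samples was measured, 1 array each. Each probe set has a log2 value, which the authors made with RMA, per the submitters' processing notes. No version or setting of RMA is given in the sources used here, and the values themselves, 2.76 to 14.52, show the scale. Quantile normalization, a step of RMA, assumes like distributions and would hide a shift of all genes. Of 35556 probe sets, 21789 had exactly 1 gene symbol in the platform annotation, 1621 had several and 12146 had none; the probe set with the highest mean stood for a gene, with no filter on low values. LPS and PBS were compared with limma 3.58.1 in R 4.3.3 (lmFit, eBayes, two-sided, no covariate, 2 residual degrees of freedom), adjusted over all genes. The fit was checked on data simulated from limma's own variance model, so the check does not show the error rate in these arrays. The number of arrays limits the precision.

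The members and lists were chosen with earlier results of these data known. Named genes were the members, ZIP, ZnT and metallothionein genes past the threshold, up to 3 rising and 3 falling genes of each other list (without any, the 2 with the highest mean), and the 3 genes nearest to each changed member; a few more were named after their values were seen (Mt4, Tsc22d3, Fkbp5, Hmox1, Il1b, Nr3c1, Ifng, the neighbours of the metallothionein genes, taken outward by position, the genes at the ends of the ZIP and ZnT ranges). Txnrd1 and Dusp1, each at an end of its list, were also named after their values were seen. Marker lists covered 11 cell types. Sequences are RefSeq's, matched by symbol for 8 of the 10 members. Figures used Python 3.11.15 and matplotlib 3.10.9.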

Additional observations from a re-analysis of the deposited data

How the results depend on the processing

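The 33 named genes, Nlrc5 included, were recomputed under 12 other settings where they had a value, which gave 391 values. Of these, 350 kept direction and side of the threshold, genes that had not passed included. Settings that alter only which genes are fitted or how variance is modelled leave a fold change as it was. Direction could not turn under those. The count of members past the threshold stayed at 3 or went to 2 (all probe sets in the fit; adjusted p under 0.01) except for 0 without variance moderation, and ran from 3 to 4 with 1 array left out. ZIP genes past the threshold numbered 1 with all probe sets, 0 without moderation, 1 at an adjusted p under 0.01 and 1 to 3 with 1 array left out. Of all genes, 730 passed (476 higher, 254 lower), against 290 with all probe sets in the fit (245 higher, 45 lower), 0 without moderation (0 higher and 0 lower) and 344 at an adjusted p under 0.01 (286 higher, 58 lower). With 1 array left out the number was 528 to 1119, with 385 to 696 higher and 127 to 423 lower. The lone array of a group is then assumed to vary like the others. Signs turned in 3 genes that had not passed: with 1 array left out, Mtf1 ran from -0.027 to 0.054, Slc39a10 from -0.0054 to 0.49 and Slc30a1 from -0.0016 to 0.25. The Mt2 to Mt1 difference ran from 0.39 to 0.47 with 1 array left out. Metal response element cores were found in 6 members, and in 5 with bases before the start alone. Low signal could not be judged, since no background level was used. No paired analysis was possible because the labels pair no PBS array with an LPS array.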
